A study of Mus musculus with 20 samples.

Results

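The carboxylesterase genes of the mouse liver were followed through 4 groups of mice that differed in surgery and diet. The family members described here are 10 genes, *Ces1b*, *Ces1c*, *Ces1d*, *Ces1e*, *Ces1f*, *Ces1g*, *Ces2a*, *Ces2c*, *Ces2e* and *Ces3a*, chosen by their symbols out of 20 carboxylesterase genes and 54532 genes in all, and all 10 passed the filter on low counts with a CPM (counts scaled to library size with TMM factors) of at least 2 in all 20 mice. Carboxylesterases are serine hydrolases of the endoplasmic reticulum, a few of them secreted, that cleave ester and amide bonds. In hepatocytes they activate or inactivate ester drugs and other foreign compounds, and several also cleave triglycerides, diglycerides or cholesteryl esters, so that they handle both xenobiotics and stored fat. The mouse genome holds many more of these genes than the human genome, arranged as tandem copies.

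Livers came from male C57BL/6 mice that had all spent 12 weeks on high-fat diet (HFD), then underwent Roux-en-Y gastric bypass (RYGB) or a sham operation, and ate chow or HFD for a further 8 weeks. The sham groups are called Sham Chow and Sham HFD and the bypass groups RYGB Chow and RYGB HFD, each with 5 mice and 5 poly(A) libraries of bulk liver, so that every group, including both chow groups, shared the earlier period on HFD and an operation. A fall on HFD and a rise after the change to chow therefore cannot be told apart, and a diet effect below means the difference between HFD and chow mice. The livers were a random subset of a larger cohort. The labels name no sequencing batch. The paper reports that Sham HFD mice were heavier than all other groups and treats this as a confounder. Contrasts with Sham HFD therefore differ in body weight as well as in diet or surgery, and these cannot be told apart here.

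Total counts ran from 14604854 to 22537498 per mouse, and the 10 most abundant genes held 14.4% to 19.8% of them. The 8 hepatocyte marker genes (*Alb*, *Ttr*, *Apoa1* and others) summed to 79888 to 100826 CPM in Sham Chow and 68242 to 81143 in Sham HFD, and to 72141 to 120815 in RYGB Chow and 95956 to 114891 in RYGB HFD. Of the 8, 5 were called lower in Sham HFD than in Sham Chow, against 10.7% of all tested genes. *Alb* was by far the largest of the 8, at a median of 73756 CPM over all mice against 7524 for *Apoa1*, the next. The 8 stellate cell and fibroblast markers summed to 324 to 390 CPM in Sham HFD against 146 to 304 in the other groups. All 8 were called higher in Sham HFD than in Sham Chow, as were 6 of 8 macrophage markers, against 10.9% of all tested genes. In bulk liver, fewer cells of a type and less RNA per cell cannot be told apart. Some libraries lay at an end of their group for many members. RYGB Chow replicate 3 was the lowest of its group for 7 of the 10 members, and it also had the lowest hepatocyte marker sum of its group (72141 CPM) and the highest macrophage marker sum (539 CPM against 231 to 324 in the other 4 mice). RYGB Chow replicate 5 was the highest of the same group for 7 members, with the highest hepatocyte marker sum (120815 CPM). In Sham Chow, replicate 4 was the highest for 6 members, and in RYGB HFD, replicate 5 was the lowest for 6 of the 10 members. The part of these marker and library differences in the results was not tested, and values without RYGB Chow replicate 3 or RYGB HFD replicate 5 are given where a call turned on that library.

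All 10 genes lie on chromosome 8 (GRCm38) in 2 tandem clusters. The *Ces1* cluster spans chr8:93020214-93535830 on the minus strand, 515.6 kb with 9 carboxylesterase genes, 6 of them members. The cluster from *Ces2* to *Ces4* spans chr8:104734003-105150109 on the plus strand, 416 kb with 11 carboxylesterase genes, 4 of them members. In the reading frame, the *Ces1* members shared 71.9% to 88.8% of their aligned coding bases with each other, the highest pair being *Ces1b* and *Ces1c*, and the *Ces2* members 82.4% to 83.6%. Between *Ces1* and *Ces2* the identity was 56.0% to 58.3%, and *Ces3a* shared 54.9% to 56.8% with *Ces1* and 58.4% to 59.2% with *Ces2* members.

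Many carboxylesterases kept in the endoplasmic reticulum end in a retention signal of histidine, any residue, glutamate and leucine. Only codons for this form of the signal were looked for, and where each enzyme resides was not measured. The ends of the coding sequences (GENCODE M21, GRCm38) are shown for all 10 members because they split the family, with the last 4 codons before the stop codon in capitals:
*Ces1b*: cctactgagcacAGAGAACACAAAtga
*Ces1c*: cctactgaacacACAGAACACAAAtga
*Ces1d*: tcccacagggaaCATGTTGAGCTCtga
*Ces1e*: ctgccgacagaaCACACTGAGCTGtga
*Ces1f*: ccccagccatacCACAATGAGCTGtga
*Ces1g*: tcccatagggaaCATGTTGAACTGtga
*Ces2a*: tctcaggacaagCATGCAGAGCTGtag
*Ces2c*: tctcaggacaagCACAGGGAGCTTtag
*Ces2e*: tctcaggagaggCACAAAGAGTTGtag
*Ces3a*: agcaggaaagttCCAGAGGAGCTCtga
Codons for that signal were found in 7 members, *Ces1d*, *Ces1e*, *Ces1f*, *Ces1g*, *Ces2a*, *Ces2c* and *Ces2e*. *Ces1b*, *Ces1c*, the gene of the plasma carboxylesterase, and *Ces3a* lacked them. The ends of *Ces1b* and *Ces1c* are near copies of each other, and the end of *Ces3a* keeps only the codon pair GAGCTC of the signal's second part.

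Upstream sequences of 7 members were found in RefSeq (GRCm38.p6), and those of *Ces1d*, *Ces1f* and *Ces3a* were not used here. The 250 bases before the start are shown for the 3 *Ces2* members, whose levels moved in different ways below, and for the close pair *Ces1b* and *Ces1c*, whose levels moved little. Capitals mark AGGTCA or AGTTCA on either strand, hexamers found in binding sites of nuclear receptors:
*Ces2a* (chr8:104733753-104734002, plus strand): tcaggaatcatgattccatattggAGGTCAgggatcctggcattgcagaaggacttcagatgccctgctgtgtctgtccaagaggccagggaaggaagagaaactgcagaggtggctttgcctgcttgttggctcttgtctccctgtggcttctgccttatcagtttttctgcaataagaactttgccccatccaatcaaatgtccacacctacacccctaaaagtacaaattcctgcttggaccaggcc
*Ces2c* (chr8:104846818-104847067, plus strand): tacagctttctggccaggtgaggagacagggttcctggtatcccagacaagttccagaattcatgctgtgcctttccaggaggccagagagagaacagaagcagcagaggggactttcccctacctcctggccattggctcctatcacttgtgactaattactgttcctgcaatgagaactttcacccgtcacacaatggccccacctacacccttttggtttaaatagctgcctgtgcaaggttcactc
*Ces2e* (chr8:104926010-104926259, plus strand): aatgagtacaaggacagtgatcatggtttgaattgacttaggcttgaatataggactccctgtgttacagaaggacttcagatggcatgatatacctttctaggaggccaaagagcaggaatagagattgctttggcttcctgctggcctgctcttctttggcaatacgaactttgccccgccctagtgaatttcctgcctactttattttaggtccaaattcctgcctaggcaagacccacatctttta
*Ces1b* (chr8:93079941-93080190, minus strand): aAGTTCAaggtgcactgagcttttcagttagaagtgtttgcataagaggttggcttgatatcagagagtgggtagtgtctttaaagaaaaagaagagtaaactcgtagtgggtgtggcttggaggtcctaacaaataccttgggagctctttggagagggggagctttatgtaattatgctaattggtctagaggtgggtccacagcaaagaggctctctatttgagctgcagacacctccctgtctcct
*Ces1c* (chr8:93131284-93131533, minus strand): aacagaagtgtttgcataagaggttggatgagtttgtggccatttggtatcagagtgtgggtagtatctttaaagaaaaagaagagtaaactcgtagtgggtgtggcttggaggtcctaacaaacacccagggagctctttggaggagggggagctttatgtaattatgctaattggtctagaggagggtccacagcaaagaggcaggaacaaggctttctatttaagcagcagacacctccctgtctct
The aligned *Ces2a* window shared 64.6% of its bases with that of *Ces2c* and 53.2% with that of *Ces2e*, against 80.4% between *Ces1b* and *Ces1c*. The *Ces1b* window shown is that of 1 of its 2 starts in RefSeq. The window of the other (chr8:93080018-93080267) overlaps it and holds largely the same bases, shifted. Aligned end to end, these 2 windows shared only 52.9%, and the shifted one shared 42.9% with that of *Ces1c*. Those low values come with the shift and do not describe a separate upstream sequence. AGGTCA occurred once, in *Ces2a*, at bases -226 to -221 from the start, and 14% of 32851 promoter windows of this length hold it on either strand. AGTTCA occurred in *Ces1b*, at the same site in both of its overlapping windows, and in 11.8% of all windows. TTGCNNAA, the core of sites for C/EBP factors, occurred in *Ces1b*, *Ces1c*, *Ces2e* and, at 2 places, in *Ces2a*, and in 9.56% of all windows. TTCNNNGAA, the STAT5 core, and GTTAAT, from sites for HNF1 factors, matched none of the 7 members' windows and 7.02% and 6.43% of all windows. None of these motifs overlapped another in the windows shown. A match describes the letters only.

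Per length (CPM per kb of exon), levels of the members spanned a wide range and 2 genes carried most of the sum. *Ces1c* ranked first in every group, with means of 996 and 923 CPM per kb in sham mice on chow and HFD, and of 1072 and 1032 in RYGB mice. *Ces3a* ranked second in every group, at 629 and 511 CPM per kb in sham mice and at 607 and 751 in RYGB mice, and its mice lay below all *Ces1c* mice of their group. *Ces1d* held the third rank throughout, falling from 305 CPM per kb in Sham Chow to 126 in RYGB HFD. *Ces2a* held the fourth rank in both chow groups (220.1 and 207 CPM per kb), the eighth in Sham HFD (44.4) and the sixth in RYGB HFD (63.1). *Ces2e* moved from the eighth rank in Sham Chow (85.7) to the fifth in Sham HFD (103), where its range overlapped that of *Ces1g* (102), the next in order. *Ces1b* was always ninth (38.6 to 49.2 CPM per kb) and *Ces2c* always last (5.89 to 14.0). Neighbours in the order overlapped at 3 of 9 steps in Sham Chow, 5 of 9 in RYGB Chow, 2 of 9 in Sham HFD and 6 of 9 in RYGB HFD.

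**Figure D1:**
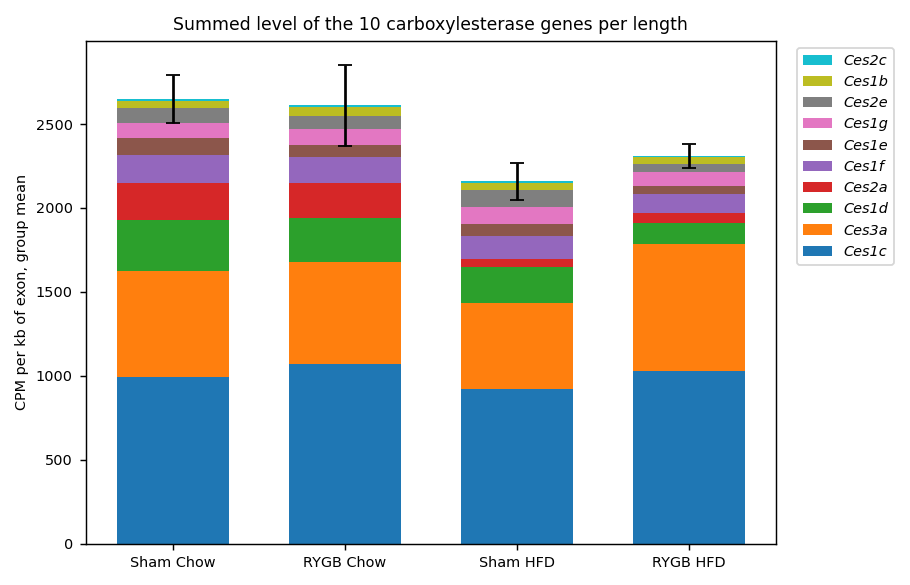
Mean CPM per kb of exon of the 10 members, stacked by gene for each group of 5 mice, with the SD of the summed level as the error bar. From left to right (the chow pair and then the HFD pair, sham before RYGB in each) the sums are 2649.5 ± 145, 2611 ± 242, 2158 ± 113 and 2309 ± 73.5, and the *Ces2a* band is thin in both HFD groups.

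Both the summed level of the 10 members and its make-up differed between groups. *Ces3b* (124 to 858 CPM over all mice) and *Ces2g* (28.8 to 62.2) are not members and are left out of these sums and shares. The summed CPM ran from 5070 to 5647 in Sham HFD and from 5383 to 5858 in RYGB HFD, below all Sham Chow mice (6163 to 7001). RYGB Chow mice (5689 to 7295) overlapped RYGB HFD mice. *Ces2a* held 8.31% ± 0.45 of the summed CPM per kb in Sham Chow (mean ± SD, n = 5) and 7.84% ± 1.64 in RYGB Chow, but 2.05% ± 0.13 in Sham HFD and 2.73% ± 0.19 in RYGB HFD. *Ces3a* held 23.8% ± 2.50, 23.2% ± 2.53, 23.6% ± 2.90 and 32.6% ± 2.82 in the same order, and *Ces1d* 11.4% ± 2.95, 10.04% ± 0.86, 10.03% ± 1.16 and 5.44% ± 1.17. All *Ces2* members together fell from a share of 12.1% ± 0.57 in Sham Chow to 7.42% ± 0.40 in Sham HFD and 5.06% ± 0.49 in RYGB HFD. In CPM, *Ces1c* and *Ces3a* together made up 57.2% to 65.2% of the sum of the 10 members in Sham Chow and 64.4% to 66.8% in Sham HFD. They made up 59.5% to 70.9% in RYGB Chow and 74.1% to 80.2% in RYGB HFD, where every mouse lay above every mouse of the other groups. These sums and shares were given as descriptions, with no test.

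Differences between groups were tested for each gene with edgeR's quasi-likelihood test in one model of all 20 mice, and a gene was called at a Benjamini-Hochberg adjusted p under 0.05 over 12289 tested genes. Fold changes are of the second named group over the first. The contrasts share mice, so that each mouse of Sham HFD, for example, counts in 2 of them, and the values stand side by side without a comparison of the lists. For each contrast the share of all tested genes called in that direction is given as the background.

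On chow, no member passed the test between sham and RYGB mice, and few genes did at all. In Sham Chow vs. RYGB Chow, 0 of 10 members were called higher and 0 lower, against 0.0488% and 0.00814% of all tested genes, so that 0 of 10 is no more than the background gives, and 0 had groups that did not overlap, against 1.33% of all genes. Log2 fold changes ran from -0.54 (*Ces1e*) to 0.26 (*Ces1b*), with a median of -0.09 against 0.00 over all genes. At an unadjusted p under 0.05, edgeR passed 2 members, *Ces1e* and *Ces1b*, against 10.8% of all genes. At an adjusted p under 0.05, limma-voom also called 0 members and DESeq2 called 1, *Ces1e* (adjusted p = 0.0212), whose estimate here is close in size to those of its called diet effects below.

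On HFD, members were called in both directions between sham and RYGB mice, but the number called higher was near the background. In Sham HFD vs. RYGB HFD, 2 members were higher, *Ces2a* and *Ces3a* (against 8.54% of all tested genes), and 4 were lower, *Ces1d*, *Ces1e*, *Ces2c* and *Ces2e* (against 7.9%). The groups did not overlap for 5 members, against 14.7% of all genes. The median log2 fold change was -0.34 against 0.01 over all genes, and 8 members had an unadjusted p under 0.05, against 30.7% of all genes.

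*Ces1e* and *Ces2a* were called lower on HFD than on chow after either operation, and 3 further members were called lower on HFD in RYGB mice. In Sham Chow vs. Sham HFD, 0 members were higher and 2 lower, *Ces1e* and *Ces2a*, against 10.9% and 10.7% of all tested genes, which for 10 genes is near the background. The groups did not overlap for 3 members, against 16.5% of all genes, *Ces2e* being higher and *Ces1e* and *Ces2a* lower in Sham HFD. In RYGB Chow vs. RYGB HFD, 0 members were higher and 5 lower, *Ces1d*, *Ces1e*, *Ces1f*, *Ces2a* and *Ces2e*, against 1.99% and 1.65% of all tested genes, and 3 did not overlap, *Ces1d*, *Ces1f* and *Ces2a*, against 5.05%. The median log2 fold change of the members was -0.23 in sham mice and -0.49 in RYGB mice, against 0.00 over all genes in each. The 5 calls in RYGB mice fell to 2, *Ces1d* and *Ces2a*, in a model of these 2 groups alone, and to 2 or 3 without RYGB Chow replicate 1, 2, 4 or 5 or RYGB HFD replicate 2, 4 or 5. In sham mice 4 members were called without Sham HFD replicate 1 or without RYGB HFD replicate 5.

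**Figure D2:**
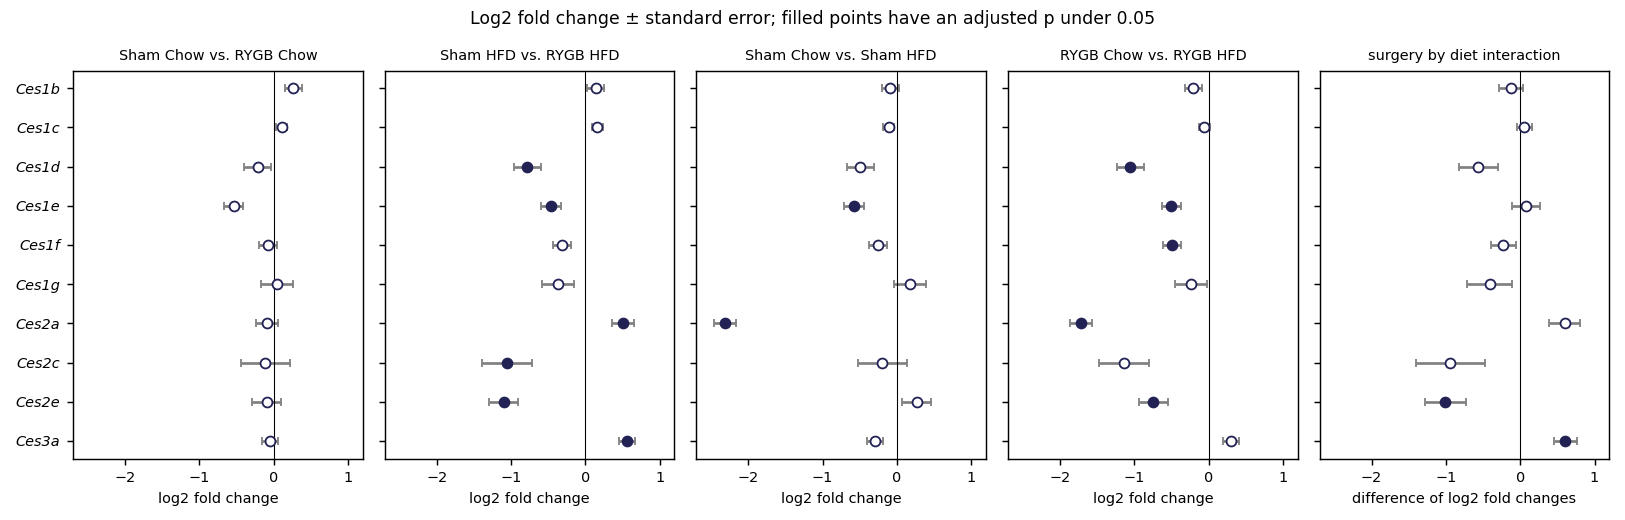
Log2 fold change of each member (x axis) with its standard error in the 4 contrasts, and the difference of the 2 diet effects in the right panel, with filled points at an adjusted p under 0.05. *Ces2a* lies far to the left in both diet contrasts, at -2.31 and -1.71. In Sham Chow vs. RYGB Chow the values run from -0.54 (*Ces1e*) to 0.26 (*Ces1b*), with no filled point.

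**Figure D3:**
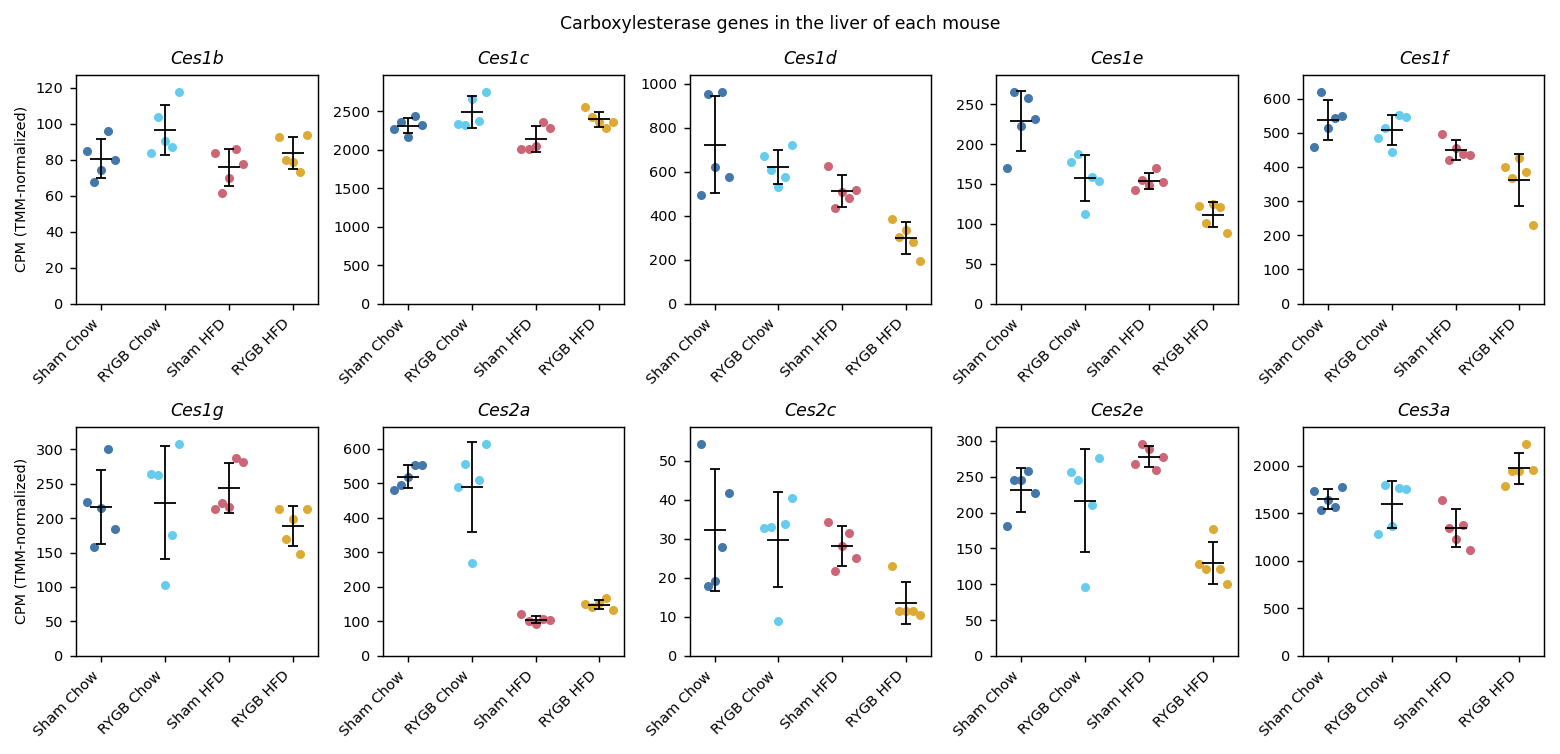
CPM of the 10 members in each mouse (points, y axes from 0), with the mean and SD of each group of 5 mice in black. *Ces2a* is at 91.3 to 169 CPM in all 10 HFD mice and at 270.4 to 614 CPM in all 10 chow mice, and RYGB Chow replicate 3 is the lowest point of its group for *Ces2a*, *Ces2c*, *Ces2e* and *Ces1g*.

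*Ces2a* (ENSMUSG00000055730, chr8:104734003-104741634), a hydrolase of the endoplasmic reticulum, showed the widest difference of the family. In Sham Chow its CPM was 479.7, 495, 518, 552 and 551 in replicates 1 to 5. In Sham HFD it was 121, 99.7, 91.3, 108 and 104. All Sham HFD mice lay far below all Sham Chow mice, the lowest of which was at 479.7 CPM. The log2 fold change was -2.31 (SE 0.15, adjusted p = 6.60e-09), or 4.96-fold lower in Sham HFD. RYGB Chow mice were at 490.3, 557, 270.4, 509 and 614 CPM, and RYGB HFD mice at 149, 141, 152, 169 and 133. Here too the groups did not overlap, the nearest mice being RYGB Chow replicate 3 and RYGB HFD replicate 4. *Ces2a* was 3.28-fold lower in RYGB HFD, with a log2 value of -1.71 (SE 0.15, adjusted p = 9.61e-07), and -1.87 without RYGB Chow replicate 3.

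Between the HFD groups *Ces2a* was higher after surgery in every mouse, with a log2 fold change of 0.51 (SE 0.14, adjusted p = 0.0190), or 1.42-fold. That call was lost without Sham HFD replicate 3 (adjusted p = 0.0585) and without RYGB HFD replicate 4 (adjusted p = 0.0531). RYGB HFD mice still lay below all mice of both chow groups. The difference of the 2 diet effects, 0.60 on the log2 scale (SE 0.20, adjusted p = 0.0936), did not pass, though it passed without RYGB Chow replicate 3 (adjusted p = 0.0450) or replicate 5 (adjusted p = 0.0487). On chow, sham and RYGB mice overlapped, with a log2 fold change of -0.09 that turned to 0.06 without RYGB Chow replicate 3.

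*Ces2e* (ENSMUSG00000031886, chr8:104926260-104934672), another member of the same cluster, did not follow *Ces2a*. Sham Chow mice had CPM of 181, 246, 245, 258 and 227. Sham HFD mice had 268, 296, 289, 259 and 278 CPM. Every Sham HFD mouse was above every Sham Chow mouse, by a small margin, and the difference did not pass, at a log2 fold change of 0.27 (SE 0.19, adjusted p = 0.337). RYGB HFD mice were at 128, 121, 178, 121 and 101 CPM. All 5 lay below all Sham HFD mice, and *Ces2e* was 2.15-fold lower in RYGB HFD, with a log2 value of -1.10 (SE 0.20, adjusted p = 0.000625). RYGB Chow mice were at 256, 245, 96.6, 211 and 276 CPM, with replicate 3 below all RYGB HFD mice and the other 4 above them all. The log2 fold change in RYGB Chow vs. RYGB HFD was -0.74 (SE 0.19, adjusted p = 0.0363), and -0.93 (adjusted p = 0.000247) without that mouse. This call was lost with limma-voom (adjusted p = 0.0696), in a model of the 2 groups (adjusted p = 0.148), and without RYGB Chow replicate 1, 2, 4 or 5 or RYGB HFD replicate 1, 2, 4 or 5 (adjusted p = 0.0583 to 0.0919).

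The estimates of the diet effect on *Ces2e* had opposite signs after sham and RYGB surgery. The difference of the effects was -1.01 on the log2 scale (SE 0.27, adjusted p = 0.0366), and *Ces2e* was the only member called lower in this interaction, against 2.58% of all tested genes. The call was close to the threshold: with 1 mouse left out in turn it was lost for 15 of 20 mice, staying under 0.05 only without Sham Chow replicate 2 or 4, RYGB Chow replicate 3, Sham HFD replicate 1 or RYGB HFD replicate 3, while the value stayed between -1.20 and -0.91 and the adjusted p between 0.000640 and 0.0665. It was also lost with limma-voom (adjusted p = 0.0623).

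*Ces2c* (ENSMUSG00000061825, chr8:104847068-104854483), a hydrolase of diglycerides and triglycerides, was the least abundant member. Sham HFD mice had CPM of 34.4, 21.8, 28.1, 31.5 and 25.0, and RYGB HFD mice 23.0, 11.4, 11.6, 11.4 and 10.4. In RYGB HFD, 4 mice lay close together near 11 CPM and replicate 1 lay apart, within the range of Sham HFD. *Ces2c* was 2.07-fold lower after RYGB than after sham surgery on HFD, with a log2 value of -1.05 (SE 0.34, adjusted p = 0.0376). The call was lost with limma-voom (adjusted p = 0.0646) and without Sham HFD replicate 1, 3, 4 or 5 or RYGB HFD replicate 2, 3, 4 or 5 (adjusted p = 0.0521 to 0.0846). Chow levels were spread widely, at 54.4, 18.0, 19.1, 27.9 and 41.9 CPM in Sham Chow and 32.7, 33.1, 8.90, 33.9 and 40.5 in RYGB Chow. In RYGB Chow vs. RYGB HFD the log2 fold change of -1.14 (SE 0.34, adjusted p = 0.0658) did not pass, and without RYGB Chow replicate 3 it was -1.37 (adjusted p = 0.0102). It also passed without Sham Chow replicate 1 (adjusted p = 0.0483) or RYGB HFD replicate 1 (adjusted p = 0.0399) and with DESeq2 (adjusted p = 0.0381) or no filter (adjusted p = 0.0399).

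*Ces3a* (ENSMUSG00000069922, chr8:105048601-105058413), the second most abundant member, was highest after surgery on HFD. Sham HFD mice had CPM of 1645, 1351, 1226, 1377 and 1114. RYGB HFD mice had 1792, 1946, 1942, 2233 and 1956 CPM. All RYGB HFD mice lay above all Sham HFD mice, and *Ces3a* was 1.47-fold higher in RYGB HFD, with a log2 value of 0.56 (SE 0.11, adjusted p = 0.00135). Sham Chow mice ran from 1535 to 1776 CPM and RYGB Chow mice from 1279.9 to 1796. The chow groups overlapped each other, RYGB Chow reached into the range of RYGB HFD with replicate 2 alone, and Sham Chow lay just below it. Against chow, *Ces3a* had a log2 fold change of -0.30 (SE 0.11, adjusted p = 0.0533) in sham mice and of 0.31 (SE 0.11, adjusted p = 0.121) in RYGB mice, and neither passed. The former passed with DESeq2, limma-voom and a model of the 2 groups and without RYGB Chow replicate 1, 3 or 5 or Sham HFD replicate 1 (adjusted p down to 0.0172).

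The diet effects on *Ces3a* differed between operations, by 0.61 on the log2 scale (SE 0.15, adjusted p = 0.0261). It was the only member called higher in the interaction, against 2.48% of all tested genes. The call was lost without Sham Chow replicate 5 (adjusted p = 0.0525), Sham HFD replicate 3 (0.0573) or 5 (0.0538), or RYGB HFD replicate 4 (0.0533), and with library size in place of TMM factors (0.0598). The direction of *Ces3a* and *Ces2a* in Sham HFD vs. RYGB HFD was that of the hepatocyte marker sum, which was higher in all RYGB HFD mice, and *Ces1d*, *Ces1e*, *Ces2c* and *Ces2e* went the other way. That sum was mainly *Alb*. Of the 8 markers, 5 were called higher and 1 lower in this contrast, against 8.54% and 7.9% of all tested genes. The part of the marker sums in these values was not tested.

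**Figure D4:**
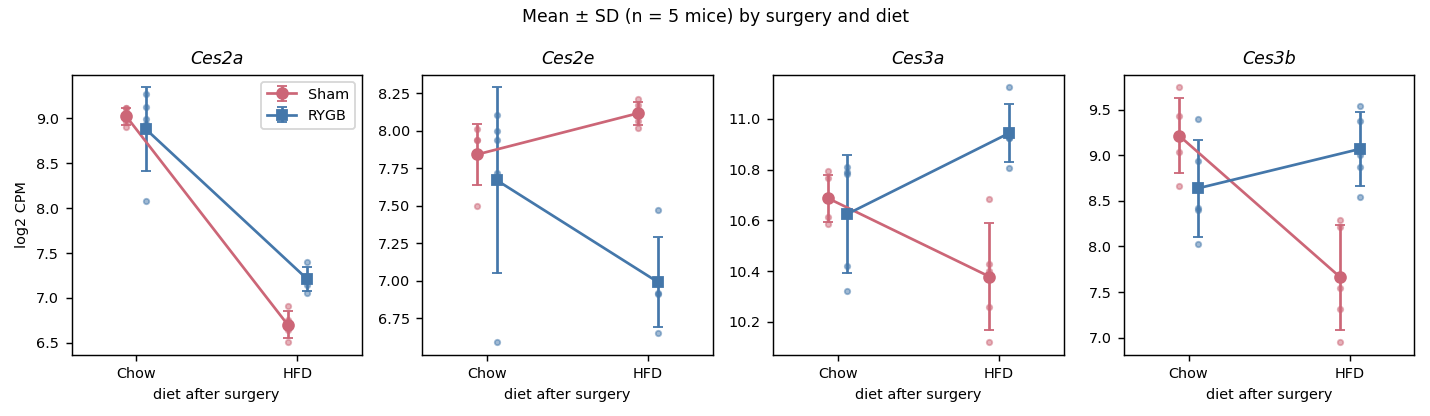
Log2 CPM (y axis) by diet after surgery (x axis) for *Ces2a*, *Ces2e*, *Ces3a* and *Ces3b*, with points for mice and mean ± SD (n = 5) joined for sham and RYGB. *Ces2a* is lower on HFD than on chow after both operations, the lines of *Ces2e* part on HFD with RYGB lower, and those of *Ces3a* and *Ces3b* part with RYGB higher.

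Of the 4 *Ces1* members with the retention signal, *Ces1d*, *Ces1e* and *Ces1f* were called lower with HFD in RYGB mice. *Ces1d* (ENSMUSG00000056973, chr8:93166068-93197838) encodes triacylglycerol hydrolase, which releases stored triglyceride for VLDL assembly. In Sham HFD its CPM was 628, 434, 508, 478 and 517, and in RYGB HFD 387, 302, 334, 279.9 and 193. The groups did not overlap, and *Ces1d* was 1.72-fold lower in RYGB HFD, with a log2 value of -0.78 (SE 0.18, adjusted p = 0.00537). RYGB Chow mice were at 671, 609, 529, 574 and 723 CPM, all above all RYGB HFD mice. *Ces1d* was 2.08-fold lower in RYGB HFD than in RYGB Chow, with a log2 fold change of -1.06 (SE 0.18, adjusted p = 0.00242). Both calls held without any single mouse. Sham Chow mice were spread from 493 to 965 CPM, with replicates 2 and 4 far above the others. The effect of HFD in sham mice, -0.49 (SE 0.18, adjusted p = 0.0574) on the log2 scale, lay just outside the threshold and passed with DESeq2 (adjusted p = 0.0304) or no filter (0.0488) and without Sham Chow replicate 1 (0.0203) or 5 (0.0487), Sham HFD replicate 1 (0.0440) or RYGB HFD replicate 5 (0.0355).

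*Ces1e* (ENSMUSG00000061959, chr8:93201218-93229619) encodes egasyn, which holds beta-glucuronidase in the endoplasmic reticulum. Its log2 fold changes lay between -0.58 and -0.46 in all 4 contrasts. Sham Chow mice had CPM of 170.2, 266, 223, 257 and 231, and RYGB Chow mice 178, 187, 113, 158 and 153. Only Sham Chow replicate 1 fell inside the RYGB Chow range, and the log2 fold change of -0.54 (SE 0.13, adjusted p = 0.148) did not pass. Sham HFD mice had 143, 155, 149, 170.0 and 153 CPM, all just below all Sham Chow mice, and RYGB HFD mice 122, 100.5, 125, 122 and 88.7, all below all Sham HFD mice. The log2 fold change was -0.58 (SE 0.13, adjusted p = 0.00385) in Sham Chow vs. Sham HFD and -0.46 (SE 0.13, adjusted p = 0.0182) between the HFD groups, the second lost without RYGB HFD replicate 5 (adjusted p = 0.0545). In RYGB Chow vs. RYGB HFD it was -0.50 (SE 0.13, adjusted p = 0.0357), with RYGB Chow replicate 3 inside the RYGB HFD range. That call was lost in a model of the 2 groups (adjusted p = 0.0956) and without RYGB Chow replicate 1, 2, 4 or 5 or RYGB HFD replicate 1, 2, 4 or 5 (adjusted p = 0.0541 to 0.0828).

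*Ces1f* (ENSMUSG00000031725, chr8:93256236-93279747), a triglyceride hydrolase, differed less. RYGB Chow mice had CPM of 486, 513, 444, 553 and 545, and RYGB HFD mice 400.3, 367, 428, 385 and 231. The groups did not overlap, with RYGB HFD replicate 5 well below its group, and the log2 fold change was -0.49 (SE 0.12, adjusted p = 0.0297), or -0.36 (adjusted p = 0.0264) without that mouse. The call was lost without RYGB Chow replicate 2 (adjusted p = 0.0506), 4 (0.0638) or 5 (0.0618) and in a model of the 2 groups (0.113). Against Sham HFD, where CPM ran from 421 to 495, the log2 fold change of RYGB HFD was -0.31 (SE 0.12, adjusted p = 0.0872), which passed with library size only (adjusted p = 0.0250) and without RYGB HFD replicate 3 (0.0493). In Sham Chow vs. Sham HFD it was -0.26 (SE 0.12, adjusted p = 0.129), which passed in a model of the 2 groups (0.0392) and without RYGB HFD replicate 5 (0.0301).

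*Ces1b*, *Ces1c* and *Ces1g* were called in none of the 4 contrasts nor in the interaction. *Ces1c* (ENSMUSG00000057400, chr8:93099015-93131283), the plasma carboxylesterase and most abundant member, was at 2314 ± 100.3 CPM in Sham Chow (mean ± SD, n = 5), 2144 ± 169 in Sham HFD, 2491 ± 204 in RYGB Chow and 2396 ± 101 in RYGB HFD. The log2 fold changes of *Ces1c* lay between -0.11 and 0.16 with a standard error of 0.07, so that the estimates were small and narrow. *Ces1b* (ENSMUSG00000078964, chr8:93056728-93080017) was at 80.6 ± 10.8, 75.7 ± 10.3, 96.7 ± 14.1 and 83.6 ± 8.98 CPM in the same order, with log2 fold changes from -0.21 to 0.26 (SE 0.11). The signs of these small values in Sham Chow vs. Sham HFD turned when counts were scaled by library size only. *Ces1g* (ENSMUSG00000057074, chr8:93302369-93337308), a hydrolase known to limit liver fat synthesis, was spread from 102 to 308 CPM in RYGB Chow alone. Between the HFD groups it differed by -0.37 (SE 0.22, adjusted p = 0.261) on the log2 scale, an estimate too wide to tell a fall from none, and it passed in a model of the 2 groups (adjusted p = 0.0410).

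**Figure D5:**
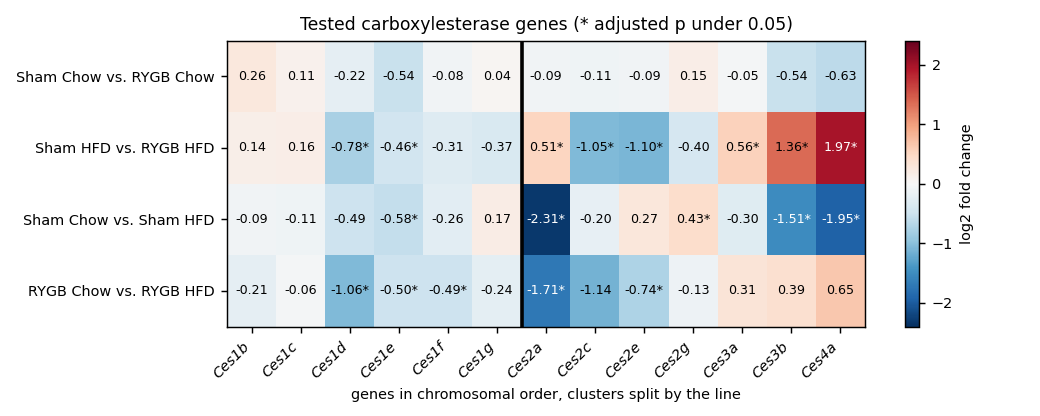
Log2 fold changes of the 13 tested carboxylesterase genes in chromosomal order (columns) in the 4 contrasts (rows), with the value in each cell and a star at an adjusted p under 0.05. In Sham HFD vs. RYGB HFD the *Ces1* side holds lower or small values, and the other cluster holds *Ces2c* and *Ces2e* lower beside *Ces2a*, *Ces3a* and *Ces3b* higher. *Ces4a* is also higher there, but it reached the filter level in 0 Sham HFD mice and 4 RYGB HFD mice, so that passing and differing were linked.

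Of the 10 other carboxylesterase genes in the table, 3 passed the filter. *Ces3b*, the neighbour of *Ces3a*, was at 591, 405, 690.1, 526 and 858 CPM in Sham Chow and 313, 297, 124, 159 and 187 in Sham HFD. In RYGB mice it was at 338, 676, 261, 489 and 344 CPM on chow and 372, 746, 515, 469 and 665 on HFD. Sham HFD mice lay below all Sham Chow and RYGB HFD mice, while RYGB Chow replicate 3 lay within their range, with log2 fold changes of -1.51 (SE 0.28, adjusted p = 0.000831) in Sham Chow vs. Sham HFD, 1.36 (SE 0.28, adjusted p = 0.00211) between the HFD groups and 1.90 (SE 0.39, adjusted p = 0.00804) for the interaction, the same signs as those of *Ces3a* at larger size. *Ces2g* was higher in Sham HFD than in Sham Chow, at a log2 fold change of 0.43 (SE 0.14, adjusted p = 0.0406), which was lost without Sham Chow replicate 1, 2 or 5 or any 1 of the 5 Sham HFD mice (adjusted p up to 0.0993). *Ces4a*, between 0.307 and 4.40 CPM, reached the filter in 7 mice and in none of Sham HFD, so that passing and differing were linked. RYGB HFD over Sham HFD gave a log2 fold change of 1.97 (SE 0.43, adjusted p = 0.00349). *Ces1a*, *Ces1h*, *Ces2b*, *Ces2f*, *Ces2h* and *Ces5a* stayed at or under 1.86 CPM and were not tested. The pseudogene *Ces2d-ps* was at 4.70 and 4.30 CPM in Sham HFD replicates 1 and 5 and at 1.01 or less in the other mice.

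Near-identical copies limit how reads can be assigned. Of all 50-base windows of their transcripts, 36.1% in *Ces2c*, 25.6% in *Ces3a*, 17.3% in *Ces2a*, 13.0% in *Ces1c* and 11.6% in *Ces1b* occurred in another gene's transcripts, and 0.903% to 3.30% in the other members. At 150 bases only *Ces2a* (2.97%, shared with *Gm7208*), *Ces2c* (2.84%, with *Ces2d-ps* and *Gm8798*) and *Ces3a* (1.56%, with *Ces3b*) kept shared windows. Values of *Ces2a*, *Ces2c*, *Ces3a* and *Ces3b* are uncertain to that extent, since the handling of reads that fit several genes is not given in the sources used here. Exons of other genes overlapped those of members at 1 base, in *Ces3a*.

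Other enzymes and factors of ester metabolism were counted from lists made by their known roles. Of 22 tested esterases and lipases outside the family (of 23 listed), 0 were called on chow surgery (against 0.0488% higher and 0.00814% lower of all tested genes), and in Sham HFD vs. RYGB HFD 0 were higher (against 8.54%) and 3 lower (against 7.9%), *Bche*, the plasma cholinesterase (log2 fold change -0.59, adjusted p = 0.000753), *Pon3*, a lactonase (-0.38, adjusted p = 0.00626), and *Esd* (-0.32, adjusted p = 0.00761). In Sham Chow vs. Sham HFD, counts near the background of 10.9% and 10.7%, 2 were higher, *Bche* (0.46) and *Lipa*, the lysosomal acid lipase (0.38), and 3 lower, *Pnpla2*, the adipose triglyceride lipase (-0.54), *Lipc*, hepatic lipase (-0.47), and *Aadac*, an arylacetamide deacetylase (-0.33). In RYGB Chow vs. RYGB HFD 0 were higher (against 1.99%) and 4 lower (against 1.65%), *Abhd6* (-0.76), *Ddhd2* (-0.66), *Pon2* (-0.36) and *Pon3* (-0.35), and in the interaction 0 were higher (against 2.48%) and *Bche* (-0.53) and *Pon3* (-0.44) were lower (against 2.58%). *Lipa*, *Lipc*, *Aadac*, *Abhd6*, *Ddhd2* and *Pon2* were named with their values known. The 2 interaction calls were each lost without 16 of 20 mice (adjusted p up to 0.0887 and 0.0908) and with no filter (0.0660 for *Bche* and 0.0969 for *Pon3*). The call of *Pon3* in RYGB Chow vs. RYGB HFD was lost without 6 mice (up to 0.0735), with library size only (0.0502), with no filter (0.0573) and in a model of the 2 groups (0.0909).

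Of 18 tested regulators of xenobiotic and ester metabolism, 0 were called on chow surgery, in RYGB Chow vs. RYGB HFD or in the interaction, where the shares of all genes given above are also small. In Sham HFD vs. RYGB HFD (against 8.54% higher and 7.9% lower of all tested genes) 3 were higher, *Hnf4a*, a master regulator of hepatocyte genes (0.49), *Ahr*, the aryl hydrocarbon receptor (0.54), and *Rxra*, the partner of many nuclear receptors (0.29), and 1 was lower, *Nfe2l2*, the NRF2 gene (-0.35). In Sham Chow vs. Sham HFD (against 10.9% and 10.7%) *Nfe2l2* was higher (0.47) and *Por*, which passes electrons to cytochrome P450 enzymes (-0.70, adjusted p = 0.00644), *Hnf4a* (-0.43) and *Cebpa* (-0.30) were lower. The call of *Nfe2l2* in Sham HFD vs. RYGB HFD was lost without 10 of 20 mice and with no filter (adjusted p = 0.0548), those of *Hnf4a* in Sham Chow vs. Sham HFD without 5 and in Sham HFD vs. RYGB HFD without 1, and the *Hnf4a* calls and that of *Cebpa* (adjusted p = 0.153) were also lost with library size only. *Ahr* and *Rxra* were named with their values known. Of 9 tested partners in VLDL assembly, 2 were lower in Sham HFD vs. RYGB HFD (against 7.9% of all tested genes), *Apoc3* (-0.64, adjusted p = 0.000473) and *Sar1b* (-0.32, adjusted p = 0.0283, lost without 5 of 20 mice). In Sham Chow vs. Sham HFD 0 were called, against 10.9% higher and 10.7% lower of all tested genes, which for 9 genes is near the background. In the other contrasts and the interaction 0 were called too, where the shares of all genes given above are small.

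Markers of other tissues were low or moved with Sham HFD. The gut epithelium list summed to 916 to 1748 CPM in Sham HFD against 194 to 470.3 elsewhere, mainly through *Apoa4*, which hepatocytes also make, while *Sis* and *Cdx2* were at 0 counts in all 20 mice and *Lct* in 17. The adipocyte list summed to 52.6 to 123 CPM in Sham HFD against 12.3 to 71.3 elsewhere, with *Adipoq* at 0 in 17 mice. Pancreas acinar genes, which include the gene of another ester hydrolase, *Cel*, summed to at most 3.85 CPM. Biliary markers summed to 17.7 to 58.8 CPM over all mice, endothelial markers to 87.4 to 290.1 and red cell markers to 99.0 to 461. Their part in the carboxylesterase values was not tested.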

How the data were processed

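Liver RNA of 20 mice was measured by poly(A) RNA-seq, 1 library per mouse, 5 per group by the sample titles. The authors deposited raw counts of reads per Ensembl gene, not normalized. The submitters' processing notes name Trimmomatic 0.36, FastQC, HISAT2 2.1.0, featureCounts 1.5.0-p3 and the build mm10 (GRCm38). The annotation release, the strand setting and the treatment of multi-mapping reads are not given in the sources used here. Reads without molecular identifiers are not independent molecules.

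GENCODE M21 supplied positions, exon lengths, coding sequences and symbols (for 54409 of 54532 genes), and upstream sequences from RefSeq GRCm38.p6. The filter kept 12289 genes that reached a CPM of 2 in 3 or more mice. Groups were compared with edgeR 4.0.16 (quasi-likelihood test, TMM factors, one model of 4 groups, R 4.3.3), two-sided, with Benjamini-Hochberg adjustment over all tested genes of a contrast. The interaction was the diet effect in RYGB mice minus that in sham mice. The biological coefficient of variation was 0.181. CPM per kb is CPM over the length of all exons of a gene. Identities are of global alignments. The procedure was tested on simulated data.

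All 10 members, the other carboxylesterase genes and, in each other list, up to 4 genes with the smallest adjusted p in any of 4 contrasts were named. Members, lists, contrasts and alternatives were chosen with earlier results of these data known, so a pattern already seen in them has no independent support here. Alternatives were DESeq2 1.42.0, scaling by RLE factors or by library size only, limma-voom (limma 3.58.1), no filter, a minimum CPM of 5, a model of the 2 groups, the replicate number as a block and leaving out each of 20 mice. The labels do not say what a replicate number shares.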

Additional observations from a re-analysis of the deposited data

Results flagged for a closer look

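Of 40 sets of 5 mice, 1 for each member in each group, 2 held a mouse whose gap to the nearest other mouse was large for the range of its group, where chance gives about 1 in 20. Both were in *Ces2c*. In RYGB Chow, replicate 3 was at 8.90 CPM and the other 4 mice at 32.7 to 40.5 CPM. In RYGB HFD, replicate 1 was at 23.0 CPM and the other 4 at 10.4 to 11.6 CPM. RYGB Chow replicate 3 was also the lowest of its group for 6 further members.

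The effect of HFD differed between sham and RYGB mice for 2 members by edgeR's test of the difference itself. For *Ces2e* the difference was -1.01 on the log2 scale (SE 0.27, adjusted p = 0.0366), from an effect of 0.27 in sham mice and -0.74 in RYGB mice. For *Ces3a* it was 0.61 (SE 0.15, adjusted p = 0.0261), from -0.30 in sham mice and 0.31 in RYGB mice. Neither test kept its call under all alternatives.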

How the results depend on the processing

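Of 15 member calls, 108 of 118 values under other settings and 251 of 300 values with 1 mouse left out kept their side of the threshold, and 0 changed sign. The number of members called became 1 on chow surgery with DESeq2 (0 in the report), and 4 in Sham Chow vs. Sham HFD with DESeq2 or a model of the 2 groups (2 in the report). It became 2 in RYGB Chow vs. RYGB HFD with a model of the 2 groups (5 in the report), and 1 in the interaction with limma-voom or library size only (2 in the report). With each mouse left out, members called ran from 0 to 0 on chow surgery, 4 to 6 in Sham HFD vs. RYGB HFD, 2 to 4 in Sham Chow vs. Sham HFD, 2 to 6 in RYGB Chow vs. RYGB HFD and 0 to 3 in the interaction. Same-numbered mice deviated together (r over 0.1) in 5 of 20 pairs of mice. This cut cannot tell whether same-numbered mice share a batch or handling, since the labels do not say what a number stands for. With the number as a replicate block, 1 member was called in the interaction, that of *Ces2e* being lost (adjusted p = 0.0763), and 4 in RYGB Chow vs. RYGB HFD, where *Ces1e* (0.0556) and *Ces2e* (0.0808) were lost and *Ces2c* (0.0416) passed. The block also lost *Ces2g* in Sham Chow vs. Sham HFD (0.0580), *Pon3* in RYGB Chow vs. RYGB HFD (0.0509), *Nfe2l2* in Sham HFD vs. RYGB HFD (0.0509) and *Bche* (0.0743) and *Pon3* (0.0676) in the interaction. Library size only moved the median of all genes to 0.12 in Sham Chow vs. Sham HFD and to -0.13 in the interaction. It turned the log2 fold changes, none of them called, of *Ces1b* (0.039) and *Ces1c* (0.018) in Sham Chow vs. Sham HFD and of *Ces1c* (-0.090) and *Ces1e* (-0.054) in the interaction. Limma-voom turned *Ces1g* on chow surgery (-0.029). With mice left out, further uncalled values changed sign: on chow surgery *Ces1g* (-0.10 to 0.22), *Ces2a* (-0.18 to 0.063), *Ces2c* (-0.26 to 0.16), *Ces2e* (-0.19 to 0.094) and *Ces3a* (-0.10 to 0.021), *Ces2c* in Sham Chow vs. Sham HFD (-0.35 to 0.080) and *Ces1e* in the interaction (-0.032 to 0.17). The causes were not tested. With 5 mice a group, *Ces2c* and *Ces1g* have standard errors of 0.22 to 0.34 in the 4 contrasts. The values of -1.14 (SE 0.34) for *Ces2c* in RYGB Chow vs. RYGB HFD and -0.37 (SE 0.22) for *Ces1g* in Sham HFD vs. RYGB HFD did not pass.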
